A study of Homo sapiens with 6 samples.

Results

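The 10 genes described here encode enzymes that add groups to tubulin or take them off again, or that are built like such enzymes. They are TTL, TTLL1, TTLL4, TTLL5, TTLL7 and TTLL12 of the tubulin tyrosine ligase family, the carboxypeptidases AGTPBP1 and AGBL5, the acetyltransferase ATAT1 and the deacetylase HDAC6. They were taken by name from a table of 63140 Ensembl genes, and all 10 were found under a single identifier each. The table holds bulk RNA sequencing counts of HEK293T cells, a transformed line from human embryonic kidney, collected 18 h after transfection. In 3 libraries the cells had received a miR-34a duplex, and in 3 they had received the AllStars negative control from Qiagen, which the labels call a miRNA in one place and an siRNA in another. The series was set up to ask how the structure of a microRNA bound to its target bears on repression. Replicates are described as biological. The duplex itself and the modifications of tubulin were not measured.

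Microtubules are polymers of alpha- and beta-tubulin, and their surface is marked after assembly by a small set of enzymes. Carboxypeptidases cut the last tyrosine from alpha-tubulin and TTL puts it back on soluble tubulin; TTLL enzymes add glutamate or glycine chains to the tubulin tails and deglutamylases trim them; ATAT1 acetylates a lysine inside the microtubule and HDAC6 removes the acetyl group. These marks steer motors and severing enzymes and are dense on cilia, centrioles and axons. miR-34a, a p53-induced microRNA, guides Argonaute to mRNAs that pair with its seed, bases 2 to 8 from its 5′ end.

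The strand that acts as the guide and the places where it could pair with these mRNAs are shown first, because the results below are read beside them. The mature sequence, from RefSeq on GRCh38.p14, has its seed in capitals. The mRNA stretches, from GENCODE 29 transcripts on GRCh38, are the only matches found in the 3′ UTR searched of any of the 10 genes, with the matching bases in capitals and written as DNA.
hsa-miR-34a-5p: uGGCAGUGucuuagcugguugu
TTL, 6mer, chr2:112530077-112530100, plus strand: gcaacccattgaaaACTGCCctcc
TTLL12, 6mer, chr22:43166933-43166956, minus strand: agtgggtggacctaACTGCCcagg
TTLL7, 7mer-m8, chr1:83865885-83865909, minus strand: aattttgttacttaCACTGCCtatt

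The sense strand of each 3′ UTR was searched for CACTGCCA (8mer), CACTGCC (7mer-m8), ACTGCCA (7mer-A1) and ACTGCC (6mer), each place being given the longest of these names that it allowed. The match in TTL begins 1296 nt after the stop codon in a 3′ UTR of 12944 nt, that in TTLL12 1066 nt into 1386 nt, and that in TTLL7 4067 nt into 4934 nt. All 3 lie in the last exon of their transcript (exon 7, 14 and 21). Among 12951 tested genes whose 3′ UTR could be classed, 30.9% held a match of any of these kinds and 20.9% a 7mer or 8mer. A match describes letters in the annotated UTR and not a bound site.

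TTL and TTLL12 fell with miR-34a, TTLL5 rose by less, and the other 7 enzymes did not pass the test. TTL, the ligase that restores the tyrosine of alpha-tubulin, fell by 27.7%, and TTLL12 by 21.0%; TTLL5, a polyglutamylase, rose by 18.8%. The enzymes of the acetylation pair and the deglutamylases stayed within 2.63% of their control level as estimated by the fit. Levels are given as CPM, counts per 1000000 counts of a library after TMM scaling; in bulk samples, fewer cells of a type and less RNA per cell cannot be told apart. Counts were tested with the edgeR quasi-likelihood test over 17427 genes, with Benjamini-Hochberg adjustment, and an adjusted p under 0.05 counts as a change. The background is that 6.7% of all tested genes fell, 5.38% rose and 12.1% changed in either direction. Against this, 2 of the 10 enzymes fell and 1 rose. The median log2 fold change was 0.02 over the 10 enzymes and 0.00 over all tested genes. The groups did not overlap for 3 of the 10, TTL, TTLL12 and TTLL4, and that was so for 27.3% of all tested genes.

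**Figure D1:**
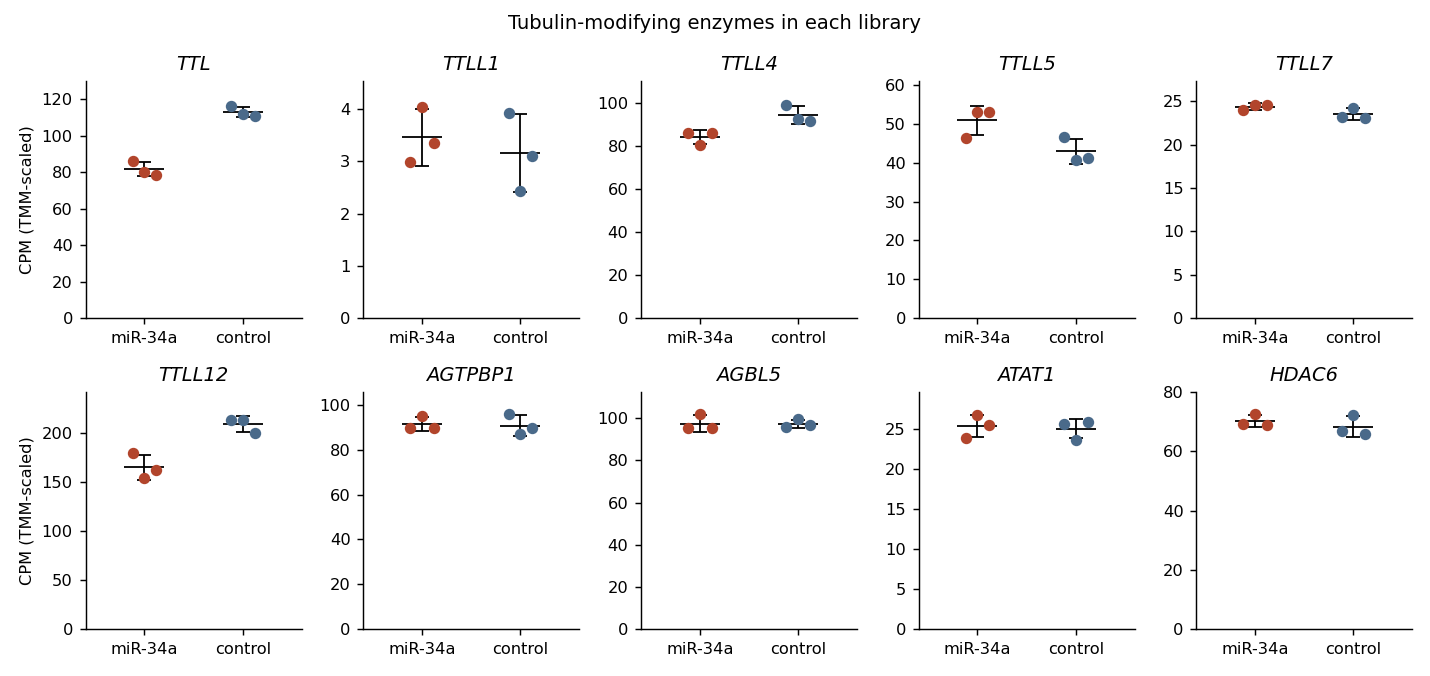
Level of each enzyme mRNA in each library, in CPM after TMM scaling, on axes that start at 0, with miR-34a libraries on the left and control libraries on the right of each panel. Points are libraries in the order of replicates 1 to 3, the long bar is the mean and the whiskers are 1 SD (n = 3 each). TTL, TTLL12 and TTLL4 have no overlap between the groups, while AGTPBP1, AGBL5, ATAT1 and HDAC6 have interleaved points.

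The libraries held 25198898 to 36650331 counts with miR-34a and 24728662 to 32849065 in the control, and each enzyme but TTLL1 was counted at least 566 times in every library. The first principal component, with 32.5% of the variance, separated the groups, and the second, with 20.4%, set control replicate 1 apart from the other libraries. Without control replicate 1, TTL and TTLL12 still fell and TTLL5 still rose (log2 fold change 0.32, adjusted p = 0.0080 by edgeR). Of 7 markers of the HEK293T line, 6 were above 1 CPM in every library (SOX11 was not), as were COL1A1 and COL3A1 of 4 fibroblast markers and 0 of the markers of endothelium, squamous epithelium and mature kidney tubule. Summed over the 7 HEK293T markers the level was 436 to 457 CPM with miR-34a and 442 to 476 CPM in the control. The sum holds shifts in both directions. LIN28B was higher with miR-34a (190 to 194 CPM) than in the control (143 to 177 CPM). INA was lower with miR-34a (41.7 to 42.5 CPM) than in the control (55.5 to 61.7 CPM). NEFL and NEFM were also lower without overlap, while PAX2 and LHX1 overlapped. Another library stood apart at the deacetylase SIRT1. This gene was at 49.7, 428 and 73.3 CPM in miR-34a replicates 1 to 3, against 71.1 to 92.4 CPM in control libraries. Whether that library stood apart at other genes was not tested. Without miR-34a replicate 2, TTL and TTLL12 still fell and TTLL5 did not pass.

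TTL closes the tyrosination cycle and is the enzyme of the 10 with the largest fall. The gene lies on chromosome 2 at 112482154 to 112541739, plus strand (GRCh38). Its level was 86.4, 80.5 and 78.6 CPM in the miR-34a libraries, against 116, 112 and 111 CPM in the control libraries. The highest miR-34a library lay well under the lowest control library. The means were 81.8 ± 4.06 CPM with miR-34a and 113 ± 2.79 CPM in the control (SD, n = 3 each), and edgeR gave a log2 fold change of -0.47 ± 0.07 (SE; 95% interval -0.61 to -0.33), with an adjusted p of 2.6e-05. This fall is inside the range that holds the middle 90% of all tested genes, whose 5th percentile was -0.51 and 95th percentile 0.48. TTL shares no exonic sequence with another gene in the annotation used.

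None of the carboxypeptidases known to work against TTL passed the test. VASH1 and VASH2, which cut the tyrosine when bound to their partner SVBP, averaged 39.2 ± 1.16 and 23.7 ± 1.41 CPM with miR-34a and 36.9 ± 0.993 and 20.6 ± 1.98 CPM in the control (SD, n = 3 each). Their log2 fold changes were 0.09 (95% interval -0.07 to 0.24, adjusted p = 0.54) and 0.20 (0.01 to 0.39, adjusted p = 0.17 by edgeR). SVBP, at 9.70 ± 0.922 CPM with miR-34a and 10.8 ± 2.05 CPM in the control, and the unrelated carboxypeptidase MATCAP1, at 31.3 ± 1.84 CPM with miR-34a and 30.3 ± 1.96 CPM in the control, did not pass either (adjusted p = 0.50 and 0.77 by edgeR). MATCAP2, a paralogue of MATCAP1, did rise. It stood at 56.9, 56.0 and 52.8 CPM in the miR-34a libraries, against 40.4, 38.1 and 41.6 CPM in the control libraries, with no overlap; edgeR put the log2 fold change at 0.46 ± 0.07 (SE), with an adjusted p of 8.1e-05. MATCAP2 shares 1.16% of its exonic length with ANLN on the opposite strand, which averaged 269.9 CPM with miR-34a and 180 CPM in the control and rose as well; its part in the value was not tested.

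Set against each other per kilobase of exon, TTL mRNA stood at 0.377, 0.329 and 0.324 of the summed VASH1, VASH2 and MATCAP1 mRNA in the miR-34a libraries, against 0.498, 0.498 and 0.516 in the control libraries. The mean ratio with miR-34a was 0.681 of that in the control. The ratio describes mRNA and holds the same TTL counts as above.

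TTLL12 is an outlying relative of TTL that carries a ligase-like domain, and no tubulin ligase activity is established for it. The gene lies on chromosome 22 at 43166622 to 43187133, minus strand. Its level was 179, 154 and 162 CPM in the miR-34a libraries, against 213, 214 and 199.8 CPM in the control libraries. The groups did not overlap, and the miR-34a libraries spread more than the control libraries, with means of 165 ± 12.8 CPM with miR-34a and 209 ± 7.94 CPM in the control (SD, n = 3 each). In edgeR the log2 fold change came to -0.34 ± 0.07 (SE), with a 95% interval of -0.49 to -0.19 and an adjusted p of 0.0016.

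Of the 4 glutamate-adding enzymes 1 rose, TTLL5. This gene, on chromosome 14 at 75633625 to 75955078, was at 46.4, 53.1 and 53.0 CPM in the miR-34a libraries, against 46.7, 40.8 and 41.3 CPM in the control libraries. Here the groups overlapped: miR-34a replicate 1 lay just under control replicate 1. In edgeR the log2 fold change came to 0.25 ± 0.08 (SE), with a 95% interval of 0.08 to 0.41 and an adjusted p of 0.041, close to the threshold. With control replicate 2 or 3 left out it no longer passed (adjusted p = 0.17 in both), nor with miR-34a replicate 2 (0.18) or 3 (0.14) left out.

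TTLL5 overlaps neighbouring genes in its exons. It shares 2.71% of its exonic length with FLVCR2 and 0.693% with the ciliary transport gene IFT43, both on the same strand. It also shares 0.285% with ERG28 on the opposite strand, and the strand setting of the counts was not given. None of these passed the test: FLVCR2 averaged 1.56 CPM with miR-34a and 1.89 CPM in the control, IFT43 20.2 CPM with miR-34a and 18.8 CPM in the control, and ERG28 49.9 CPM with miR-34a and 54.4 CPM in the control.

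TTLL4, which like TTLL5 begins glutamate side chains, did not pass. It was at 86.4, 80.8 and 86.1 CPM in the miR-34a libraries, against 99.4, 92.6 and 91.6 CPM in the control libraries. Every miR-34a library was under every control library, yet the log2 fold change was only -0.16 ± 0.07 (SE; 95% interval -0.31 to -0.02) and the adjusted p was 0.14 (edgeR; unadjusted p = 0.027). TTLL7, a polyglutamylase of beta-tubulin, was at 23.95, 24.6 and 24.6 CPM in the miR-34a libraries, against 23.1, 24.3 and 23.1 CPM in the control libraries. Its log2 fold change was 0.05 (95% interval -0.12 to 0.22, adjusted p = 0.77 by edgeR).

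TTLL1, the catalytic subunit of a polyglutamylase complex, was the scarcest of the 10, with 75, 118 and 124 counts in the miR-34a libraries and 96, 80 and 100 counts in the control libraries. In CPM these were 2.98, 4.04 and 3.35 with miR-34a, against 3.93, 2.44 and 3.11 in the control. The values interleaved, and the log2 fold change of 0.15 had a 95% interval of -0.26 to 0.55 (adjusted p = 0.72 by edgeR), the widest of the 10. That interval does not reach a fall of the size fitted for TTL, but it does hold a rise of that size. TTLL1 shares 14.98% of its exonic length with TTLL1-AS1 on the opposite strand, which averaged 0.122 CPM with miR-34a and 0.0886 CPM in the control.

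Of 8 partners of the enzymes, among them the other subunits of the TTLL1 complex, 7 were tested. Of the 7, 2 rose, 0 fell and 5 did not pass, where 5.38% of all tested genes rose and 6.7% fell. The median log2 fold change of the 7 partners was -0.01. At an unadjusted edgeR p under 0.05, 0 were lower and 2 higher, where 13.1% of all tested genes were lower and 11.3% higher, and DESeq2 and limma-voom also called 0 falls. LRRC49 averaged 23.9 ± 2.47 CPM with miR-34a and 18.8 ± 1.98 CPM in the control, and CSTPP1 30.1 ± 2.20 CPM with miR-34a and 24.6 ± 1.51 CPM in the control (SD, n = 3 each). Both rose, with log2 fold changes of 0.34 and 0.29 (adjusted p = 0.022 and 0.027 by edgeR). Both calls were unsteady: with single libraries left out, LRRC49 passed in 3 of 6 fits (adjusted p = 0.0059 to 0.15) and CSTPP1 in 2 of 6 (0.023 to 0.11). LRRC49 did not pass when control replicate 2, miR-34a replicate 1 or miR-34a replicate 2 was absent. CSTPP1 did not pass when replicate 1 or 3 of either group was absent. TPGS1 and TPGS2, further subunits, did not pass (log2 fold changes -0.14 and -0.06, adjusted p = 0.70 and 0.67). NICN1 is listed at 0 in all 6 libraries; 99.6% of its exonic length is shared with another gene on the same strand, ENSG00000283189, itself at or near 0.

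No difference was detectable for the deglutamylases at this depth. AGTPBP1, which shortens glutamate chains, was at 89.7, 95.2 and 89.9 CPM in the miR-34a libraries, against 95.8, 86.9 and 89.6 CPM in the control libraries. AGBL5, which removes the glutamate at the branch point, was at 95.3, 102 and 95.2 CPM in the miR-34a libraries, against 95.8, 99.7 and 96.6 CPM in the control libraries. Both sets of values interleaved. The 95% intervals of the log2 fold changes were -0.13 to 0.16 for AGTPBP1 and -0.14 to 0.14 for AGBL5 (adjusted p = 0.93 and 0.99 by edgeR), and neither interval reaches the fitted value of TTL or TTLL12. AGBL5 shares 2.86% of its exonic length with OST4 on the opposite strand, which fell, with 58.0 CPM with miR-34a and 71.3 CPM in the control.

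Nor did either enzyme of the acetylation pair pass. ATAT1 was at 23.95, 26.8 and 25.5 CPM in the miR-34a libraries, against 25.7, 23.7 and 25.9 CPM in the control libraries. HDAC6, which also acts on cortactin and a heat shock protein, was at 69.2, 72.5 and 69.0 CPM in the miR-34a libraries, against 66.7, 72.4 and 66.0 CPM in the control libraries. In both genes the groups overlapped. The 95% intervals were -0.15 to 0.20 for ATAT1 and -0.11 to 0.18 for HDAC6 (adjusted p = 0.91 and 0.81 by edgeR). Per kilobase of exon, ATAT1 mRNA stood at 0.951 ± 0.0358 of HDAC6 mRNA with miR-34a and at 0.967 ± 0.0932 in the control (SD, n = 3 each). SIRT2, a further tubulin deacetylase, averaged 46.4 ± 2.89 CPM with miR-34a and 45.8 ± 3.09 CPM in the control (log2 fold change 0.02, adjusted p = 0.92 by edgeR).

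**Figure D2:**
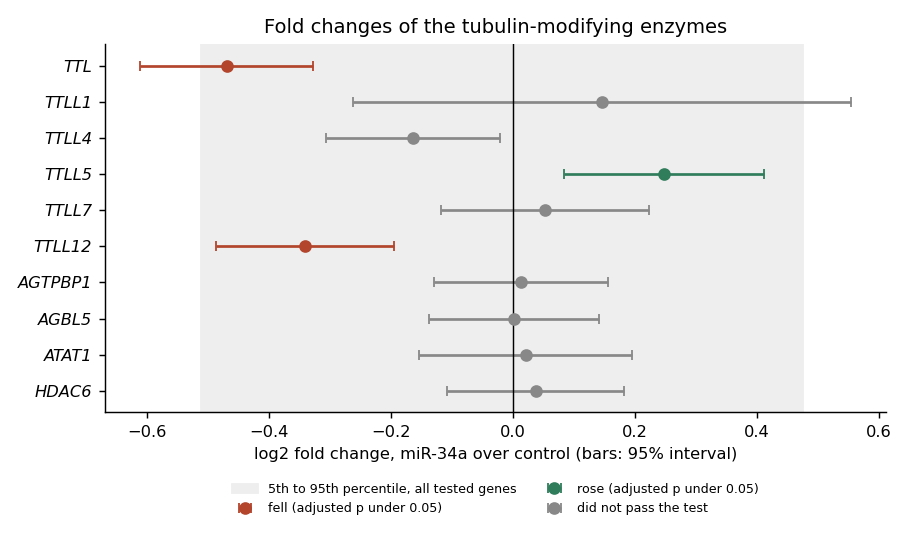
Log2 fold change of each enzyme, miR-34a over control, with its 95% interval from the edgeR fit; the grey band holds the middle 90% of all 17427 tested genes. TTL (-0.47) and TTLL12 (-0.34) lie left of 0 and TTLL5 (0.25) right of it, all inside the band, while the intervals of TTLL1, TTLL7, AGTPBP1, AGBL5, ATAT1 and HDAC6 cross 0.

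The falls of TTL and TTLL12 did not rest on 1 library. With each library left out in turn, TTL passed in 6 of 6 fits, with log2 fold changes of -0.51 to -0.44 and adjusted p-values of 3.8e-05 to 0.00052, and TTLL12 in 6 of 6, with -0.40 to -0.29 and 0.0010 to 0.029 (edgeR). TTLL4 passed in 0 of 6, with -0.18 to -0.12 (adjusted p = 0.17 to 0.44). TTLL5 passed in 2 of 6.

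**Figure D3:**
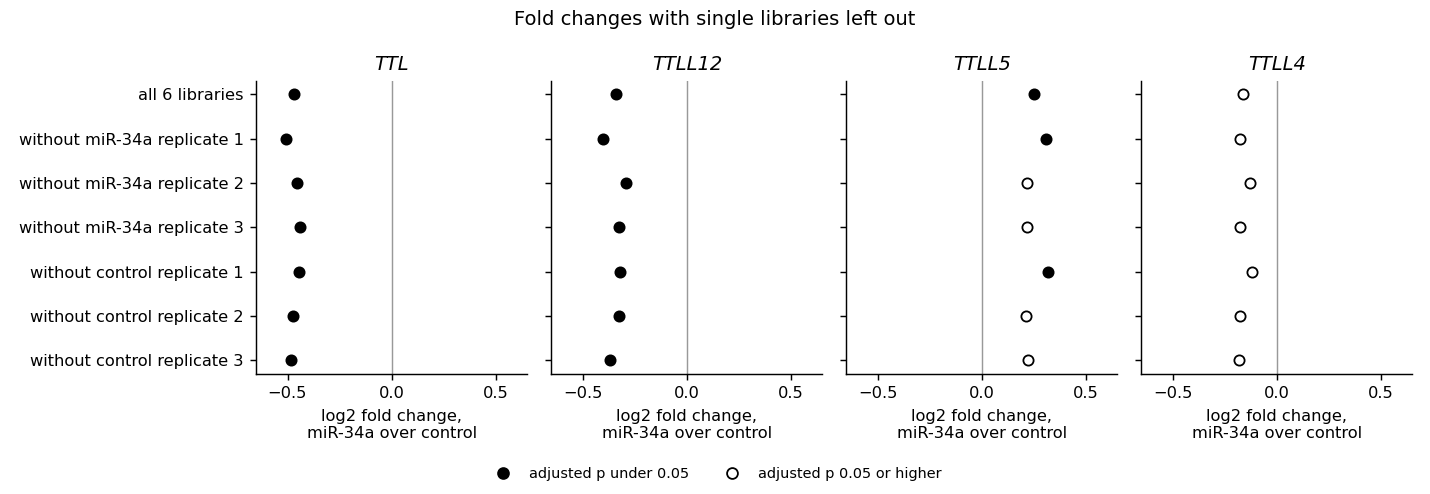
Log2 fold change of TTL, TTLL12, TTLL5 and TTLL4, miR-34a over control, from all 6 libraries and with each library left out. Filled points passed the edgeR test and open points did not: TTL and TTLL12 are filled in every fit, TTLL5 in 2 of the 6 reduced fits, and TTLL4 in none.

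Levels can be compared between the enzymes only per length, here as CPM per kilobase of exon summed over all annotated transcripts of a gene. In the control TTLL12 was highest, at 45.2 ± 1.72 (SD, n = 3), followed by AGBL5 at 18.4 ± 0.386 and AGTPBP1 at 18.4 ± 0.931, which did not differ beyond their spread. TTLL4 came next at 12.3 ± 0.552. TTL at 7.19 ± 0.178, HDAC6 at 6.45 ± 0.328 and ATAT1 at 6.22 ± 0.301 followed, of which the last pair did not differ beyond their spread. TTLL5 at 3.50 ± 0.267, TTLL7 at 2.23 ± 0.0621 and TTLL1 at 1.81 ± 0.426 closed the order, the last pair again within their spread.

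With miR-34a the order was the same at its ends, with TTLL12 at 35.7 ± 2.77 and TTLL1 at 1.98 ± 0.308 CPM per kilobase. TTL took a lower place, at 5.199 ± 0.258, under HDAC6 at 6.62 ± 0.187 and ATAT1 at 6.30 ± 0.355. Its rank was 7 with miR-34a and 5 in the control. Ranks in the middle depend on the length used: by the length of the single transcript searched for matches, TTL had rank 8 already in the control. Its 3′ UTR of 12944 nt, against a median of 1045 nt over the classed tested genes, makes up most of its exonic length.

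Both enzymes that fell, TTL and TTLL12, hold a 6mer each, and TTLL7, with a 7mer-m8, did not pass. The remaining 7 enzymes hold no match in the UTR searched; none of them fell and TTLL5 rose. With 3 matches among 10 genes, a relation between match and change was not tested. Over all classed tested genes, 17.1% of 1332 with a 7mer-m8 as their longest match fell, 9.95% of 1297 with a 6mer and 4.90% of 8944 with none, and most genes of each kind did not fall. When the 3′ UTRs of all annotated coding transcripts were searched, ATAT1 gained a 6mer, 715 nt after the stop codon of another transcript. A 7mer or 8mer in the 5′ UTR or coding sequence was found in 5 of the 10 (TTLL1, TTLL4, AGTPBP1, AGBL5 and HDAC6), none of which passed the test; 30.2% of all tested coding genes hold one.

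Among further enzymes of tubulin modification, MATCAP2 and TTLL9 rose. Of 18 such genes 12 were counted often enough to test. Of the 12, 2 rose, 0 fell and 10 did not pass, where 5.38% of all tested genes rose and 6.7% fell. The median log2 fold change was 0.14 (0.00 over all tested genes). Values were positive in 11 of the 12 (49.3% of all tested genes). At an unadjusted edgeR p under 0.05, 1 of the 12 was lower and 4 were higher (13.1% and 11.3% of all tested genes); DESeq2 and limma-voom also called 0 falls. The lower one was TTLL2, with 9, 25 and 36 counts in the miR-34a libraries and 35, 40 and 36 counts in the control libraries (adjusted p = 0.18 by edgeR). Besides MATCAP2 the gene that rose was TTLL9, a polyglutamylase linked to cilia, with 19, 14 and 26 counts in the miR-34a libraries and 4, 9 and 3 counts in the control libraries. The groups did not overlap, and edgeR gave a log2 fold change of 1.83 ± 0.50 (SE), with an adjusted p of 0.015. Its counts are low, and it no longer passed with control replicate 3 left out (adjusted p = 0.11), nor with miR-34a replicate 1 (0.063) or 3 (0.062) left out. TTLL9 also shares 10.1% of its exonic length with PDRG1 on the opposite strand, at 31.2 CPM with miR-34a and 36.7 CPM in the control, so its level is uncertain. The lysine methyltransferase SETD2 averaged 198 ± 20.6 CPM with miR-34a and 174 ± 13.1 CPM in the control and did not pass (adjusted p = 0.13).

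**Figure D4:**
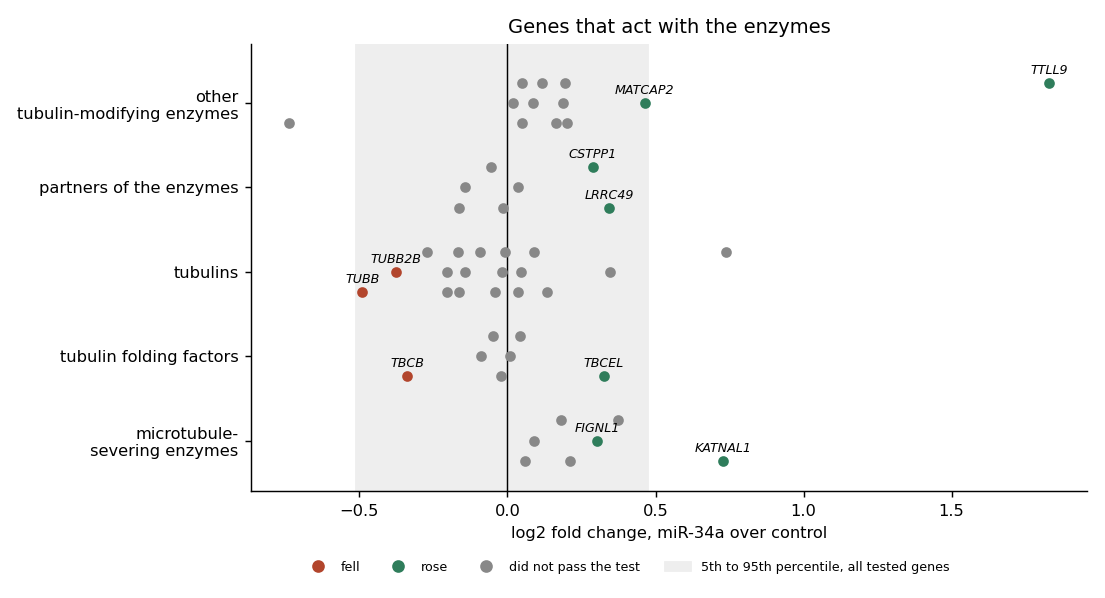
Log2 fold change, miR-34a over control, of tested genes from 5 lists of genes that act with the enzymes, less 1 that is not reported here; rows are lists, points are genes (spread vertically only to keep them apart) and the grey band holds the middle 90% of all tested genes. KATNAL1 and TTLL9 rose beyond the band, and TUBB and TUBB2B are the tubulins that fell.

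Of the substrates themselves, 2 beta-tubulins fell. Among 21 tubulin genes 18 were tested, of which 2 fell, 0 rose and 16 did not pass. Of all tested genes 6.7% fell and 5.38% rose. The median log2 fold change of the 18 was -0.07. At an unadjusted edgeR p under 0.05, 6 of the 18 were lower and 0 higher (13.1% and 11.3% of all tested genes); DESeq2 and limma-voom each called 3 falls and 0 rises. TUBB, the most abundant by CPM, was at 1235, 1139 and 1107 CPM in the miR-34a libraries, against 1561, 1674 and 1656 CPM in the control libraries, with no overlap (edgeR log2 fold change -0.49 ± 0.07 SE, with an adjusted p of 1.9e-05). An antisense gene, ENSG00000272540, shares 16.02% of its exonic length but averaged only 0.571 CPM with miR-34a and 0.787 CPM in the control. The 3′ UTR of TUBB holds a 6mer and a 7mer-A1, shown here because TUBB is the abundant substrate gene of the 2 that fell.
TUBB, 6mer, chr6:30724436-30724459, plus strand: agccgtcttactcaACTGCCcctt
TUBB, 7mer-A1, chr6:30725183-30725207, plus strand: ctggagtggtgtatACTGCCAcatc

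TUBB2B, a neuronal beta-tubulin, fell to 55.1 ± 0.983 CPM with miR-34a, against 71.5 ± 8.66 CPM in the control (SD, n = 3 each; log2 fold change -0.38, adjusted p = 0.0018 by edgeR). It shares 7.93% of its exonic length with PSMG4 on the opposite strand, at 26.9 CPM with miR-34a and 28.9 CPM in the control. Its 3′ UTR as searched holds no match. Among genes named from the other lists, TBCB, which fell, and TBCEL, which rose, hold a 6mer each. VASH1, with a 7mer-A1, and SIRT2, with a 6mer, did not pass. In 3′ UTRs of other annotated coding transcripts, TUBA1C held an 8mer and a 7mer-m8, and VASH2 and TPGS2 a 7mer-A1 each. These genes did not pass either. CSTPP1, which rose, held a 6mer in another transcript. The transcript chosen for VASH2 had no 3′ UTR to search. A relation between match and change was not tested in these genes. TUBB4B, which did not pass, was at 499.7 ± 11.04 CPM with miR-34a and 502 ± 14.4 CPM in the control (95% interval of the log2 fold change -0.14 to 0.13). No alpha-tubulin, the substrate of TTL and ATAT1, passed in the main edgeR fit. The nearest was TUBA1C, named after its values were seen, at 154 ± 8.29 CPM with miR-34a and 178 ± 7.23 CPM in the control (log2 fold change -0.21, adjusted p = 0.050 by edgeR, just over the threshold). TUBA1C shares 10.6% of its exonic length with TUBA1A on the opposite strand, at 113 CPM with miR-34a and 126 CPM in the control. Tubulin genes are near-identical copies with many pseudogenes, and how reads shared between them were counted is not given in the sources used here, so values of single tubulin genes are uncertain.

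Of 7 tubulin folding factors 1 fell, TBCB, and 1 rose, TBCEL, where 6.7% of all tested genes fell and 5.38% rose. The other 5 did not pass, with log2 fold changes of -0.09 (ARL2) to 0.04 (TBCC), and the median of the 7 was -0.02. At an unadjusted edgeR p under 0.05, 1 of the 7 was lower and 1 higher (13.1% and 11.3% of all tested genes). TBCB, which handles alpha-tubulin, fell to 52.6 ± 0.543 CPM with miR-34a, against 66.5 ± 5.89 CPM in the control, and TBCEL, a TBCE-like factor that can destabilise tubulin, rose to 29.8 ± 1.25 CPM with miR-34a, against 23.8 ± 1.11 CPM in the control (SD, n = 3 each; log2 fold changes -0.34 and 0.32, adjusted p = 0.0028 and 0.0094 by edgeR). TBCB shares 12.5% of its exonic length with POLR2I on the opposite strand, at 4.56 CPM with miR-34a and 5.68 CPM in the control, and TBCEL 16.2% with the read-through gene TBCEL-TECTA, at 0.441 CPM with miR-34a and 0.256 CPM in the control.

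Among 8 tested severing enzymes, some of which glutamate chains draw to the microtubule, KATNAL1 and FIGNL1 rose. That is 2 of 8, where 5.38% of all tested genes rose. Not all of the 8 are reported here, and falls among them are not counted. KATNAL1, a katanin-like ATPase, was at 44.7, 49.1 and 52.0 CPM in the miR-34a libraries, against 33.3, 26.8 and 28.1 CPM in the control libraries. The groups were well apart, and edgeR put the log2 fold change at 0.73 ± 0.09 (SE), with an adjusted p of 1.4e-06. FIGNL1, a related ATPase that also works in DNA repair, rose to 114 ± 3.73 CPM with miR-34a, against 92.2 ± 8.39 CPM in the control (SD, n = 3 each; log2 fold change 0.30, adjusted p = 0.0066 by edgeR). FIGNL1 no longer passed with control replicate 2 left out (adjusted p = 0.054).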

How the data were processed

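The authors deposited raw counts, not normalized, with Ensembl genes in rows and libraries in columns. Per the submitters' processing notes featureCounts, Subread 2.0.3, STAR 2.7.11a and, on GRCh38, edgeR 3.42.4 were used; annotation release, strand setting and treatment of multi-mapping reads were each not given in the sources used here. The range of total counts per group is in the report.

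Genes were filtered by filterByExpr (minimum count 10, minimum total 15), scaled by TMM and tested between the groups in edgeR 4.0.16 under R 4.3.3 (quasi-likelihood test, no covariate), with Benjamini-Hochberg adjustment. Symbols, exons and 3′ UTRs (transcript with the longest coding sequence, UTRs of at least 50 nt) came from GENCODE 29; the authors' annotation may differ. Fold changes are miR-34a over control, with 95% intervals from the quasi-likelihood F statistic. P-values weigh the difference between the groups against the spread of libraries within a group, for these 6 libraries only.

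The count test was tried on simulated counts, where it recovered 89% of changes of 1.5 fold and 98% of changes of 2 fold, with 5.08% false calls. Smaller changes, such as those fitted for TTL, TTLL12 and TTLL5, were not simulated. Alternatives were other scalings and filters, DESeq2 1.42.0, limma-voom (limma 3.58.1), a replicate block and each library left out. The members and lists were chosen with earlier results of these data known. From each further list the text names up to 3 genes past the threshold, or the 2 most abundant where none passed. Further list members, neighbours that share exons and SIRT1 are named beside them for context. Some genes of the lists are not reported here.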

Additional observations from a re-analysis of the deposited data

How the results depend on the processing

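TTL and TTLL12 passed as falls in the main analysis and under all 13 alternatives, with log2 fold changes of -0.51 to -0.44 and -0.40 to -0.29. The count of enzymes that rose, 1 (TTLL5), was 0 with the replicate block and 0 to 1 with single libraries left out. Replicate numbers did not pair the libraries: deviations of same-numbered libraries correlated at -0.03, 0.02 and -0.08. With the replicate block 1023 genes fell and 807 rose, against 1167 and 938 without it, and TTLL5 had adjusted p = 0.067 (edgeR).

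With single libraries left out, 727 to 1394 of all genes fell and 525 to 1287 rose. In the further lists, 1 to 3 other tubulin-modifying enzymes rose (1 with the filter at 1 CPM in 3 libraries, where TTLL9 was not tested, and 1 with DESeq2, which gave TTLL9 no adjusted p), 0 to 1 partners rose, 2 to 4 tubulins fell, and 0 to 1 severing enzymes fell and 1 to 3 rose. For single genes, 244 of 271 values from alternatives kept direction and call and 19 lost the call, among them values of TTLL5, TTLL9, LRRC49, CSTPP1 and FIGNL1. The other 8 changed sign, all with single libraries left out and in genes that never passed: log2 fold changes ran from -0.013 to 0.33 for TTLL1, -0.017 to 0.060 for AGTPBP1, -0.029 to 0.019 for AGBL5 and -0.019 to 0.062 for ATAT1. The cause was not tested. Depth limits TTLL1, TTLL2 and TTLL9, and NICN1 is at 0.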
